A study of Mus musculus with 16 samples.

Results

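Tet2-deficient and wild-type (WT) mouse bone marrow cells were compared after exposure to ambient air, in 8 of the 16 libraries of a bulk RNA sequencing series. No gene was selected: all 6288 genes of the deposited table were used, and 6110 with sufficient counts were tested. The cells were CD45-positive and enriched for LSK cells, marrow cells that lack lineage markers and carry Kit and Sca1, among which are the blood stem cells and multipotent progenitors. The WT air group comprised 4 libraries from C57Bl/6J mice, and the Tet2-deficient air group 4 libraries from Tet2-/- mice, also labelled C57Bl/6J. Mice of both genotypes were 3 to 4 months old and of both sexes, matched by age and sex but with the sex of each library not given. All marrow was harvested and enriched at 3% oxygen, and the cells of the 8 air libraries then spent 6 hours at about 21% oxygen before RNA extraction. The sources used here state neither the design of the Tet2 allele nor whether a library pools several mice. Any further difference between the mice of both genotypes, such as background or colony, would go with genotype and could not be told apart from it here. The labels call the 4 libraries of a group biological replicates and name no animal, so the p-values measure the spread between these libraries.

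Tet2 encodes a dioxygenase that uses oxygen, iron and oxoglutarate to oxidise methylated cytosine in DNA, a step toward loss of the methyl mark. It is among the genes mutated most often in clonal haematopoiesis and in myeloid neoplasms. Its loss in mice is known for expansion of the stem and progenitor compartment and for a bias toward myeloid output. Tet2 is therefore studied in LSK cells as a regulator of how progenitors keep or leave the stem cell state.

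Values per library are normalized counts, that is reads of a gene divided by the library's size factor, given in replicate order 1 to 4. A difference is Tet2-deficient minus WT air on the scale log2(normalized count + 1), with the standard error of the limma fit, and a gene is called where its Benjamini-Hochberg adjusted p lies under 0.05. Of the 6110 genes, 79.5% were called, 42.1% higher and 37.4% lower in Tet2-deficient cells (4858, 2575 and 2283 genes). The median difference of all tested genes was 0.24 and the median size 0.71. In 70.6% of genes (4315) the 4 Tet2-deficient and 4 WT values did not overlap. A second rule, a call with a difference of at least 1 in size and no overlap, was met by 26.9% of genes, 15.7% higher and 11.2% lower (1642, 958 and 684). These shares describe genes with a difference already: 98.23% of those tested passed an unadjusted DESeq2 p of 0.05 in 1 or more of 4 pairwise comparisons. These were the comparisons of groups that differ in genotype alone or in oxygen alone. A list of genes is therefore read here against the shares for all tested genes, not against 0.

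The deposited genes held 10.6 to 13.0 M reads per air library, with 12.3% to 17.3% of them in the 10 most abundant genes. This is a part of each library, for which the labels state 30 M reads per sample. The first principal component took 74.1% of the variance and parted the genotypes, and the second, with 7.55%, parted Tet2-deficient libraries 1 and 2 from 3 and 4. Of the 12 markers listed for LSK and marrow leukocytes, 5 were in the table, among them Kit, Procr, Slamf1 and Hlf, and all 5 were higher in Tet2-deficient cells. Ptprc, which encodes CD45, is not analysed here. Basophil, mast cell and eosinophil markers were lower in 8 of 9 cases, with a summed level of 100250 to 186307 in Tet2-deficient against 493058 to 536715 in WT libraries. The eosinophil granule gene Prg2 alone took 2.86% to 3.18% of the reads of the deposited genes in WT and 0.682% to 1.24% in Tet2-deficient libraries. All 8 erythroid markers were tested and 7 were higher, with a sum of 38050 to 152543 against 12361 to 19702 and the highest mean in Tet2-deficient library 3. Lower in Tet2-deficient cells were 6 of 7 tested neutrophil, 6 of 7 T and NK cell and 3 of 3 monocyte and macrophage markers, and their mean levels in WT were highest in libraries 1 and 2. None of these lists had a tested marker at 0 in all air libraries, and none of the 8 stromal and endothelial markers was in the table. In bulk RNA, fewer cells of a type and less RNA per cell cannot be told apart. The counts of lists with at least 10 tested members are therefore also given without Tet2-deficient libraries 3 and 4 (2760 genes called in all) and without WT libraries 1 and 2 (3324 called), both of which also leave fewer samples.

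Of the 6 sex-linked markers listed, Uty of the Y chromosome and Tsix of the X chromosome were in the table. Uty stood at 684, 712, 739 and 744 in WT and 940, 887, 814 and 807 in Tet2-deficient libraries (0.26 ± 0.10), so every library held Y-linked reads. It was not called after quantile normalization, with a replicate block across genotypes, or without WT library 1 or 2 or Tet2-deficient library 1 or 2. Tsix, antisense to Xist, had counts of 1.92, 0, 1.1 and 0 in WT and 20.5, 10.4, 11 and 20.3 in Tet2-deficient libraries (3.33 ± 0.52), and reads of an antisense pair cannot be told apart where the counting is not stated to use strand. The other tested genes of the Y chromosome, named after their values were seen, were Mid1-ps1 at 0, 0, 1.1 and 0.957 in WT and 50.7, 28.7, 46 and 53.3 in Tet2-deficient libraries and Gm47283 at 625, 348, 162 and 360 in WT and 1240, 1343, 866 and 686 in Tet2-deficient libraries. All 4 were higher in Tet2-deficient libraries without overlap, and the part of sex in the genotype comparison was not tested.

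**Figure D1:**
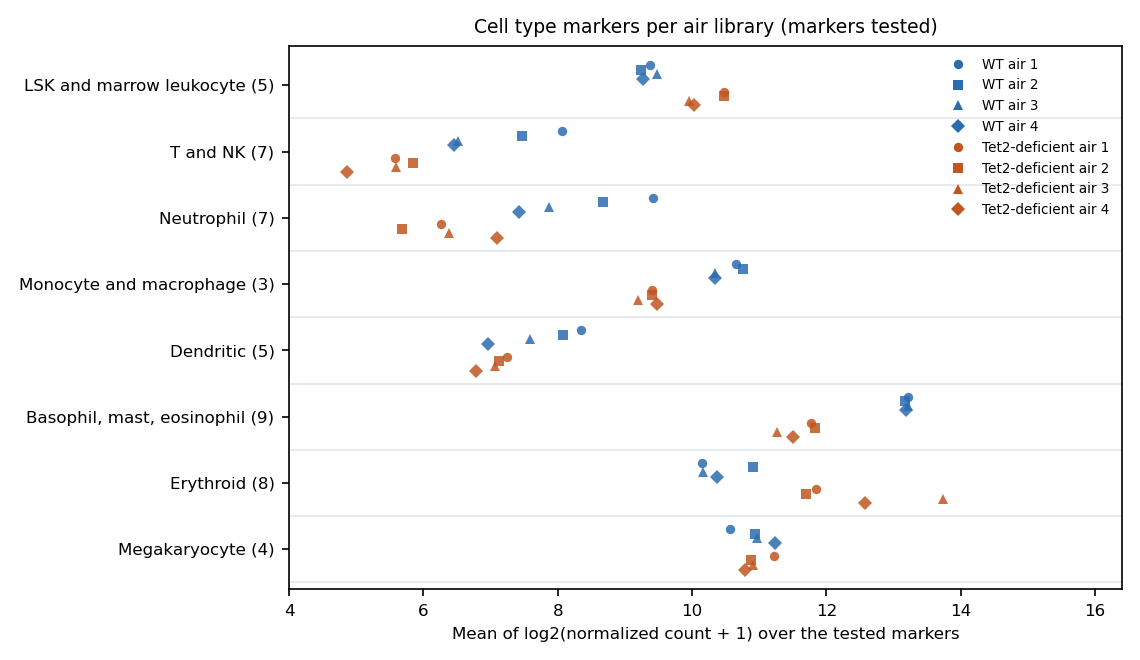
Mean log2(normalized count + 1) of the tested markers of each cell type in each air library, with the number of markers tested in brackets, blue for WT and orange for Tet2-deficient libraries and 1 symbol shape per replicate. Basophil, mast cell and eosinophil markers lie at 13.17 to 13.21 in WT and at 11.27 to 11.83 in Tet2-deficient libraries, and erythroid markers are highest in Tet2-deficient library 3 at 13.74.

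The Tet2 gene itself (ENSMUSG00000040943, chromosome 3, 133463679 to 133545139, GRCm38, as for all positions) had counts of 993, 650, 962 and 813 in WT and 626, 564, 519 and 506 in Tet2-deficient libraries. The groups did not overlap, and the difference was −0.61 ± 0.14 (limma adjusted p = 0.00223), so transcripts of the locus were reduced but present in every Tet2-deficient library. Reads over exons outside a deleted part would count toward it. Tet1, the relative that also oxidises methylcytosine, stood at 341, 392, 372 and 390 in WT and 582, 643, 686 and 753 in Tet2-deficient libraries, with no overlap (0.83 ± 0.19, adjusted p = 0.00174). Dnmt3b, a methyltransferase that sets new methyl marks, was higher in all 4 Tet2-deficient libraries as well, at 928 ± 178 against 511 ± 84 (mean ± SD, n = 4 per group, 0.85 ± 0.19). Tet3 and Dnmt3a are not analysed here. Among 15 tested genes of clonal haematopoiesis and myeloid neoplasia, 6 were higher and 4 lower (40% and 26.7%, beside 42.1% and 37.4% of all genes). In this list the higher and lower counts without Tet2-deficient libraries 3 and 4 were 5 and 2, and without WT libraries 1 and 2 5 and 3. Zrsr2, a splicing factor of the minor spliceosome, was lower at 693 ± 120 against 1164 ± 164 (−0.75 ± 0.16, adjusted p = 0.00126), as was Cblb, a ubiquitin ligase that damps receptor signalling (−0.47 ± 0.11).

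The genes with the smallest p in the comparison were parted by far more than the spread of their libraries, as the plot of the 12 leading genes in each direction shows. Inafm2 (ENSMUSG00000074918, chromosome 2, 118745758 to 118748810), a small gene of unclear function, had counts of 2502, 2505, 2823 and 2529 in WT and 160, 231, 163 and 171 in Tet2-deficient libraries. Gnb1 (chromosome 4, 155491361 to 155559269), a beta subunit of heterotrimeric G proteins, had 8512, 7144, 9847 and 8594 in WT and 1532, 1698, 1396 and 1392 in Tet2-deficient libraries. The 4 WT values of each gene lay together and several-fold above the 4 Tet2-deficient values (−3.84 ± 0.14, adjusted p = 4.42e-12 for Inafm2 and −2.50 ± 0.13, adjusted p = 5.96e-10 for Gnb1, limma). Kcnip3, a calcium sensor and channel partner, stood at 56.7 ± 29.7 against 1334 ± 184 (−4.67 ± 0.28). Ap4s1, a subunit of a vesicle adaptor complex, stood at 103 ± 32.5 against 1227 ± 93.7 (−3.62 ± 0.22), and Lrrc25 at 34 ± 10.7 against 428 ± 72.2 (−3.64 ± 0.22). Both were lower in every Tet2-deficient library. Pank4, of the pantothenate kinase family (−2.42 ± 0.18), the ubiquitin-conjugating enzyme gene Ube2h (−1.65 ± 0.12) and the axonemal dynein gene Dnah8 (−2.07 ± 0.15) completed this side with Atp6v0c, Apobec3, Vcam1 and Il11ra1, described below. Il11ra1 has a near-identical paralogue, Il11ra2, so its count is uncertain.

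On the higher side, Tmem87a (ENSMUSG00000033808, chromosome 2, 120355312 to 120404113), which encodes a Golgi membrane protein, had counts of 181, 165, 127 and 164 in WT and 2654, 3079, 2577 and 2485 in Tet2-deficient libraries (4.08 ± 0.13, adjusted p = 1.25e-12). Rbm45, an RNA-binding protein, stood at 1022 ± 125 against 49 ± 13.2 (4.38 ± 0.21), and Plscr2, of the phospholipid scramblase family, at 1067 ± 100 against 49.4 ± 7.19 (4.41 ± 0.20). Both groups were tight and far apart. Sympk, a scaffold of the polyadenylation machinery, had 385, 458, 701 and 451 in WT and 4173, 2948, 4568 and 4056 in Tet2-deficient libraries (3.00 ± 0.22). Depp1, a target of FOXO factors (3.15 ± 0.23), and Depdc1b (2.46 ± 0.15) were also among the 12 genes. The remaining 6 were the pseudogenes or gene copies Hmga1b, Atp6v0c-ps2, Rps2-ps10, Pcna-ps2, Rps13-ps1 and Rpl3-ps1, with differences of 3.01 to 6.63. None of the 24 genes lost its call under the alternative settings and left-out libraries described in the closing section.

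**Figure D2:**
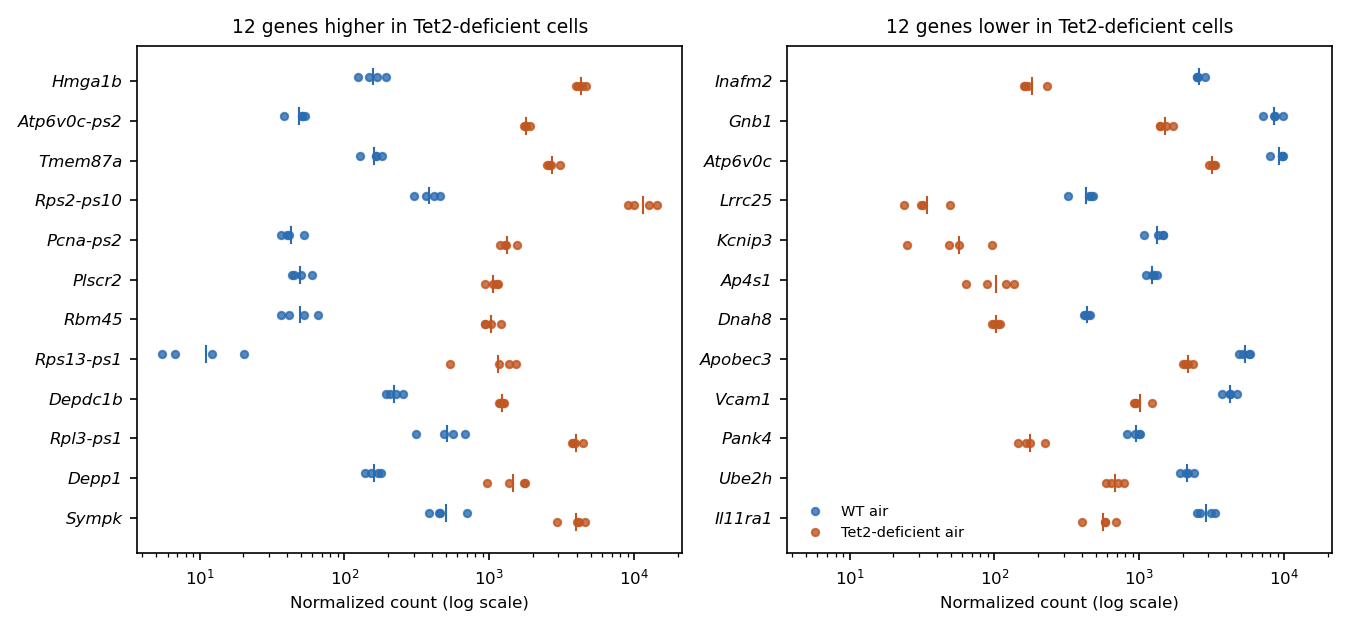
Normalized counts (log scale) in the 4 WT (blue) and 4 Tet2-deficient (orange) air libraries for the 12 genes per direction with the smallest p among genes of the second rule with a mean of at least 200. Points are libraries and vertical lines are group means, and the groups of each gene do not overlap.

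Copies of a gene can share reads, so a set of copies was read together with their parents. Pcna-ps2 and Rps13-ps1 were not read in this way. Hmga1b, a copy of the chromatin protein gene Hmga1, had counts of 124, 147, 167 and 192 in WT and 4373, 4085, 3957 and 4682 in Tet2-deficient libraries. Hmga1 itself was lower at 3144 ± 325 against 6885 ± 311 (−1.13 ± 0.11), and the sum of both genes was 7418 ± 636 in Tet2-deficient and 7042 ± 334 in WT cells, a difference of 0.07. The split between the copies thus differed while the sum stayed within the spread of the libraries. Rps2-ps10 rose from a mean of 384 to 11538 while its parent Rps2, a ribosomal protein gene, stood at 24323 against 38745, and their sum differed by −0.13. For Rpl3-ps1 with Rpl3 the sum differed by −0.14 and for Eif3j2 with Eif3j1 by −0.37, with overlapping libraries. Among the pairs plotted, the sum parted without overlap only for the proton pump gene Atp6v0c (ENSMUSG00000024121, chromosome 17, 24163866 to 24169702). Its counts were 9809, 9595, 7979 and 9623 in WT and 3335, 3017, 3165 and 3283 in Tet2-deficient libraries, those of Atp6v0c-ps2 50.9, 38.2, 50.7 and 53.6 in WT and 1782, 1783, 1901 and 1735 in Tet2-deficient libraries, and the sum of both was still lower in Tet2-deficient cells, at 5000 ± 140 against 9300 ± 852 (−0.89). Of the pairs not plotted, sums also parted without overlap for Gstm2 with Gstm2-ps1 (1.09), Cd63 with Cd63-ps (−0.68), Morf4l1 with Morf4l1-ps1 (−0.58) and Bambi with Bambi-ps1 (−0.30). The sums of the remaining pairs overlapped. How the authors' counting treated reads that match several copies is not given in the sources used here, so the values of copies and parents are uncertain one by one.

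**Figure D3:**
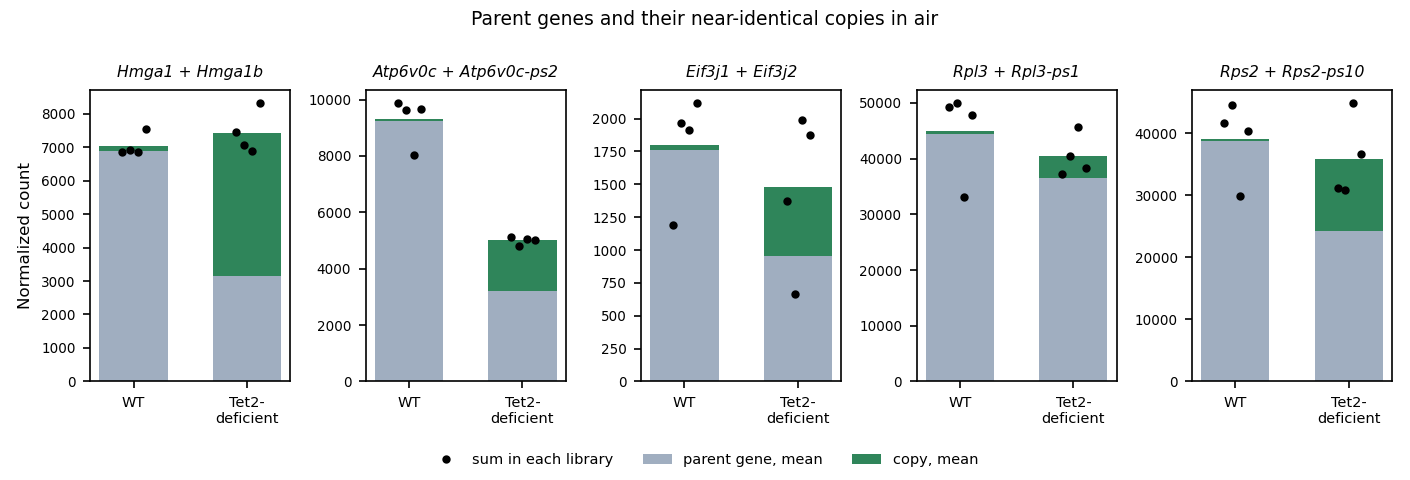
Mean normalized counts of 5 parent genes (grey) and of 1 copy of each (green), stacked, in WT and Tet2-deficient air libraries, with the sum in each library as a point. The sums overlap between the genotypes for Hmga1, Eif3j1, Rpl3 and Rps2 with their copies and do not for Atp6v0c.

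Receptors that receive signals from other cells were mostly lower in Tet2-deficient cells. Of 27 tested cytokine receptors, 20 were lower and 5 higher (median −0.72, 4 and 15 higher and lower without Tet2-deficient libraries 3 and 4, 3 and 16 without WT libraries 1 and 2). Csf2ra, the specific chain of the GM-CSF receptor (ENSMUSG00000059326, chromosome 19, 61223957 to 61228429), had counts of 6616, 6470, 6369 and 5471 in WT and 2630, 2502, 2207 and 2575 in Tet2-deficient libraries (−1.33 ± 0.11, adjusted p = 1.45e-07). Il5ra, the interleukin-5 receptor chain of eosinophils and basophils, had 322, 295, 306 and 188 in WT and 56.5, 60.8, 40 and 41.5 in Tet2-deficient libraries (−2.45 ± 0.21). In both genes every WT library lay above every Tet2-deficient library. Lower as well were Il11ra1 (−2.37 ± 0.18), the interferon gamma receptor chain Ifngr2 (−1.25 ± 0.13), both type I interferon receptor chains and both TNF receptors. The higher members included Epor, the erythropoietin receptor (1.90 ± 0.32), Il1rl1 (0.93 ± 0.37), Kit, the receptor for stem cell factor (0.71 ± 0.18) and Il27ra (0.54 ± 0.21), chosen after their values were seen. Il1rl1 was not called without Tet2-deficient library 3, where its difference was 0.56, and Il27ra was not called after quantile normalization. Basophil and eosinophil markers moved with the receptors of those cells, and their part in these counts was not tested.

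The promoters of Csf2ra, lower in Tet2-deficient cells, and of Dusp1, higher, both hold the cyclic AMP response element TGACGTCA. Dusp1, a MAP kinase phosphatase, had counts of 10885, 5190, 7076 and 2997 in WT and 20381, 32360, 23737 and 26283 in Tet2-deficient libraries (2.11 ± 0.30). The 2 windows below, from RefSeq on GRCm38.p6, cover the 250 bases before the annotated start, 5′ to 3′ along the gene, and the element is in capitals. They lie at chr19:61228419-61228668 on the minus strand and chr17:26508473-26508722 on the minus strand, and the element begins 92 and 143 bases before the start. They show the same 8 letters before genes that differed in opposite directions.
Csf2ra: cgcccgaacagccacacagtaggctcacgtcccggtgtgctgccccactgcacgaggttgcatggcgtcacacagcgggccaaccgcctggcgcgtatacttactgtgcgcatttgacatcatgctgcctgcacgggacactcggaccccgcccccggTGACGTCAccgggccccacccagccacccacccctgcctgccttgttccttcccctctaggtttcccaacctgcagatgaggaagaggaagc
Dusp1: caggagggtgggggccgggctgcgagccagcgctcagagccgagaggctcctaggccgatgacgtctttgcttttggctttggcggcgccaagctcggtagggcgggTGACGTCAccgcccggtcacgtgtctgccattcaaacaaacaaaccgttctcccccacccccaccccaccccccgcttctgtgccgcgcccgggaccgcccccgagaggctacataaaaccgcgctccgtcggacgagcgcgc

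Chemoattractant receptors, which steer migration, were mostly lower. Of 16 tested, 13 were lower and 2 higher (median −1.45, 0 and 9 without Tet2-deficient libraries 3 and 4, 2 and 9 without WT libraries 1 and 2). P2ry14, a receptor for UDP-sugars found on stem and progenitor cells, had counts of 819, 735, 825 and 928 in WT and 228, 290, 177 and 204 in Tet2-deficient libraries (−1.89 ± 0.16, adjusted p = 2.6e-07). C5ar1, the receptor for complement C5a, had 188, 94.6, 88.1 and 74.6 in WT and 1.64, 6.95, 9.01 and 6.77 in Tet2-deficient libraries (−4.05 ± 0.42), with WT library 1 highest, as for the neutrophil markers. S1pr2, a sphingosine phosphate receptor (−1.17 ± 0.17), and Cxcr4, which holds stem cells in the marrow by binding CXCL12 (−1.36 ± 0.28), were lower without overlap. The 2 members that were higher were C5ar2, a second C5a receptor (2.17 ± 0.56), and Ackr1, an atypical chemokine receptor of erythroid cells (2.06 ± 0.56). They are named because they are few, and neither passed without Tet2-deficient libraries 3 and 4.

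Adhesion molecules were divided, with 15 lower and 8 higher of 27 tested (5 and 9 higher and lower without Tet2-deficient libraries 3 and 4, 7 and 10 without WT libraries 1 and 2). Vcam1, the ligand of the integrin formed by Itga4 and Itgb1, had counts of 4249, 4725, 3746 and 4219 in WT and 923, 953, 935 and 1230 in Tet2-deficient libraries (−2.07 ± 0.15). Itgb7, an integrin beta chain, was lower at 1298 ± 166 against 3115 ± 879 (−1.23 ± 0.20), highest in WT libraries 1 and 2. Podxl, a sialomucin of stem, erythroid and endothelial cells, was the member with the largest difference, at 23.1, 26.2, 31.9 and 17.2 in WT and 228, 337, 1803 and 575 in Tet2-deficient libraries (4.41 ± 0.65, adjusted p = 5.49e-05). Tet2-deficient library 3, highest in the erythroid markers too, carried most of its mean. Esam, an adhesion molecule used to mark stem cells, was higher without such a spread, at 786 ± 132 against 397 ± 36.2 (0.97 ± 0.17).

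Receptors of innate recognition were lower in most cases. Of 31 pattern recognition and inflammasome genes, 20 were lower and 5 higher (median −0.67, 2 and 15 without Tet2-deficient libraries 3 and 4, 4 and 13 without WT libraries 1 and 2). Tlr2, the receptor for bacterial lipoproteins, had counts of 2967, 2548, 2496 and 2288 in WT and 887, 828, 644 and 799 in Tet2-deficient libraries (−1.71 ± 0.19). Clec4e, a lectin that binds mycobacterial glycolipid, had 2946, 2369, 2611 and 2870 in WT and 1036, 1117, 760 and 785 in Tet2-deficient libraries (−1.56 ± 0.15, adjusted p = 8.25e-07). For both genes every WT value lay far above the highest Tet2-deficient value. Casp4, the caspase that senses cytosolic lipopolysaccharide (−1.30 ± 0.13), and Mefv, which encodes pyrin (−2.31 ± 0.26), were lower as well. Higher were Tlr11 (2.57 ± 0.72), Tlr3 (2.22 ± 0.57), Tlr12 (1.25 ± 0.45), the lipopolysaccharide co-receptor Ly96 (0.81 ± 0.27) and the cytokine gene Il18 (0.78 ± 0.22), named because they are few, of which Tlr3, Tlr12 and Ly96 were not called without Tet2-deficient libraries 3 and 4. Of 28 Fc and paired immunoglobulin-like receptors, 22 were lower and 1, the low-affinity IgE receptor Fcer2a (2.39 ± 0.79), was higher (median −1.01, 1 and 18 without Tet2-deficient libraries 3 and 4, 1 and 17 without WT libraries 1 and 2). The shared signalling chain Fcer1g stood at 8133, 6286, 5205 and 5048 in WT and 2843, 1814, 2279 and 2616 in Tet2-deficient libraries (−1.36 ± 0.16) and the inhibitory receptor Fcgr2b at 1652 ± 226 against 3090 ± 285 (−0.91 ± 0.11). The C-type lectin and killer cell lectin-like receptors had 10 lower, 1 higher and 12 not called of 23 (1 and 6, then 1 and 5, higher and lower without the same library pairs, and 17 called in all by limma with WT libraries of the same number in air and physioxia as a block). Monocyte, neutrophil and basophil markers were lower beside these receptors, and their part in the counts was not tested.

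Antigen presentation and costimulation genes were fewer in the table. Of 10 class II and costimulation genes 6 were lower and 2 higher. Icosl, a ligand for activated T cells, was lower at 177 ± 29.5 against 473 ± 33.9 (−1.43 ± 0.22, adjusted p = 9e-05). Cd86 (−1.37 ± 0.33) and the endosomal protease gene Ctss (−1.04 ± 0.26) were lower too but not called without WT libraries 1 and 2, in which both were highest. Of 11 genes of the class I pathway 5 were lower and 1 higher. The loading chaperone Tapbp stood at 5614 ± 569 against 7608 ± 92.7 (−0.44 ± 0.10), and Mr1, which presents vitamin metabolites, was the 1 higher member, at 280 ± 24.6 against 163 ± 13.3 (0.78 ± 0.18). Higher and lower counts without Tet2-deficient libraries 3 and 4 were 1 and 5 for class II and costimulation and 1 and 1 for the class I pathway, and without WT libraries 1 and 2 2 and 2 for class II and costimulation and 1 and 4 for the class I pathway.

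Granule genes of eosinophils, basophils and mast cells were mostly lower in Tet2-deficient cells. Of 21 tested, 13 were lower and 5 higher (median −1.21, 5 and 9 higher and lower without Tet2-deficient libraries 3 and 4, 3 and 11 without WT libraries 1 and 2). Prss34, a basophil protease (ENSMUSG00000056399, chromosome 17, 25298394 to 25300165), had counts of 35806, 29764, 65695 and 48791 in WT and 6235, 6637, 4091 and 3340 in Tet2-deficient libraries (−3.14 ± 0.27, adjusted p = 2.77e-07). Rnase12, of the ribonuclease A family, had 258, 244, 286 and 256 in WT and 85.9, 63.4, 49 and 64.3 in Tet2-deficient libraries (−2.00 ± 0.19). The Tet2-deficient values stayed below every WT value in both. The opposite direction was taken by Ear10 and the pseudogene Ear-ps2, eosinophil-associated ribonuclease sequences of the same chromosome 14 cluster, which were nearly absent from WT cells, and by the serine protease Prss41. Ear10 stood at 1.92, 1.01, 2.2 and 1.91 in WT and 152, 116, 153 and 235 in Tet2-deficient libraries. Near-identical sequences among the Ear genes can divide reads, so Ear10 and its relatives are uncertain one by one. The mast cell tryptases Tpsab1 (3.16 ± 0.84) and Tpsb2 (1.68 ± 0.65) were the other higher members, and neither was called without WT libraries 1 and 2. Ms4a2, the beta chain of the high-affinity IgE receptor (ENSMUSG00000024680, chromosome 19, 11615523 to 11623719), had 803, 864, 1144 and 956 in WT and 300, 406, 305 and 260 in Tet2-deficient libraries (−1.57 ± 0.17). Prss34 and Ms4a2 are themselves basophil markers, so the group and the marker list measure the same transcripts.

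The promoters of both basophil genes hold the GATA element AGATAA, read as TTATCT on the other strand, and so do those of 2 genes that were higher with the erythroid markers. Epor had counts of 135, 261, 200 and 221 in WT and 539, 537, 1337 and 785 in Tet2-deficient libraries, and Steap3, the ferrireductase that lets endosomal iron enter the cell, had 605, 847, 666 and 596 in WT and 2029, 2007, 4478 and 2956 in Tet2-deficient libraries (2.01 ± 0.27). In both, Tet2-deficient library 3 was highest. The 250 bases before the start are printed from RefSeq (GRCm38.p6), for Prss34 at chr17:25298144-25298393 on the plus strand, Ms4a2 at chr19:11623720-11623969, Epor at chr9:21963577-21963826 and Steap3 at chr1:120271081-120271330 on the minus strand, with the element in capitals. It begins 31 bases before the start in Prss34, 224, 37 and 11 bases before it in Ms4a2, 54 in Epor and 45 in Steap3. The same 6 letters thus stood in promoters of genes lower and of genes higher in Tet2-deficient cells.
Prss34: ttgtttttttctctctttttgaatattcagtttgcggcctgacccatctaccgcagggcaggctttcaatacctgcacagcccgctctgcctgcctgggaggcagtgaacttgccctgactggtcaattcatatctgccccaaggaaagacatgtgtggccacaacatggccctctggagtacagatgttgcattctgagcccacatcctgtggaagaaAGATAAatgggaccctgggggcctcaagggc
Ms4a2: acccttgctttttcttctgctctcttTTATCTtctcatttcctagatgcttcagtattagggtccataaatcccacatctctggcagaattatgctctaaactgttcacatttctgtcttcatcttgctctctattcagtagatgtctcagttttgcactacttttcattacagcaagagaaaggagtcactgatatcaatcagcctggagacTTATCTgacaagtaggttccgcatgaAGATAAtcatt
Epor: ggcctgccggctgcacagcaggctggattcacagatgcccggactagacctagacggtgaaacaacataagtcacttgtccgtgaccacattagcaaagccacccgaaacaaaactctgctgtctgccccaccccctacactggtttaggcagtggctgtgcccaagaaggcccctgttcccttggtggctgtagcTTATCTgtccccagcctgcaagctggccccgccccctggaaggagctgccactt
Steap3: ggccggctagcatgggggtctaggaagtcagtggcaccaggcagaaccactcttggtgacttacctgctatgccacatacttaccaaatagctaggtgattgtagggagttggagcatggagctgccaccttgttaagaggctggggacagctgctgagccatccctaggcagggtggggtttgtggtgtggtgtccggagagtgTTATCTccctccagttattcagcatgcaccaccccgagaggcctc

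Among 12 eicosanoid enzymes, which make and break down lipid mediators, 6 were lower and 5 higher (50% and 41.7%). Of all genes 37.4% were lower and 42.1% higher, and the lists that follow are read beside those shares. Alox5, the first enzyme of leukotriene synthesis, had counts of 912, 935, 1164 and 776 in WT and 493, 460, 341 and 326 in Tet2-deficient libraries (−1.23 ± 0.17, adjusted p = 2.51e-05), and its partner Alox5ap stood at 3326 ± 304 against 4878 ± 830 (−0.54 ± 0.13). Cyp4f18, which inactivates leukotriene B4, was lower at 360 ± 83.8 against 1724 ± 533 (−2.24 ± 0.29), highest in WT library 1. The soluble epoxide hydrolase gene Ephx2 was higher (1.02 ± 0.26). Lysosomal genes had 16 lower and 8 higher of 28 (median −0.42). Gla, the alpha-galactosidase, had 2305, 2133, 2492 and 2264 in WT and 1021, 1030, 917 and 906 in Tet2-deficient libraries (−1.25 ± 0.11), with the groups well apart. The protease genes Ctsh (−2.46 ± 0.26) and Ctsz (−0.80 ± 0.09) were lower, and Ctsh was highest in WT libraries 1 and 2. Of 10 subunits of the lysosomal proton pump, 5 were lower, with Tcirg1 at 3097 ± 556 against 4729 ± 226 (−0.63 ± 0.15), and 2 higher, Atp6v0e2 and Atp6v0a4, the first of them nearly absent from WT cells and the second not called by edgeR or DESeq2. Autophagy genes were split, 9 lower and 7 higher of 22 (40.9% and 31.8%). They had 4 lower and 0 higher without Tet2-deficient libraries 3 and 4, and 6 and 3 without WT libraries 1 and 2. The cargo receptors Tax1bp1 (−0.65 ± 0.09) and Sqstm1 (−0.79 ± 0.15) were lower in every Tet2-deficient library. Higher and lower counts without Tet2-deficient libraries 3 and 4 were 3 and 4 for the eicosanoid enzymes, 6 and 10 for the lysosomal genes and 1 and 3 for the proton pump, and without WT libraries 1 and 2 2 and 4 for the eicosanoid enzymes, 8 and 9 for the lysosomal genes and 2 and 3 for the proton pump.

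Transcription factors of blood formation moved in both directions, 23 higher and 21 lower of 54, close to the shares of all genes (11 and 15 without Tet2-deficient libraries 3 and 4, 15 and 14 without WT libraries 1 and 2). The higher ones with the smallest p were Id1 and Id3, inhibitors of basic helix-loop-helix factors. Id1 (ENSMUSG00000042745, chromosome 2, 152736251 to 152737410) had counts of 372, 344, 196 and 208 in WT and 1683, 1507, 1598 and 1505 in Tet2-deficient libraries (2.54 ± 0.22, adjusted p = 2.68e-07), and Id3 stood at 4249 ± 449 against 1846 ± 95.9 (1.20 ± 0.14). In neither did the groups come near each other. Gfi1b (1.38 ± 0.18), Nfia (1.29 ± 0.17) and Gata1, the erythroid and megakaryocyte regulator, were higher too, with Gata1 at 1160, 1600, 1648 and 1520 in WT and 2587, 2516, 5532 and 3285 in Tet2-deficient libraries and highest in Tet2-deficient library 3. Spi1, which encodes the myeloid and B cell factor PU.1, was lower at 13061, 14444, 14144 and 15471 in WT and 9734, 9672, 8106 and 8618 in Tet2-deficient libraries (−0.66 ± 0.12, adjusted p = 0.000249). Irf8, needed for monocytes and dendritic cells, did not pass (6569 ± 557 against 8499 ± 2143, −0.34 ± 0.17, adjusted p = 0.0686), nor did the granulocyte factor Cebpe (2787 ± 498 against 3505 ± 1177, −0.27 ± 0.26, adjusted p = 0.326), and the groups overlapped in both. With WT libraries of the same number in air and physioxia as a block, limma called Irf8 (adjusted p = 0.00467).

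Signalling genes inside the cell were called in both directions. JAK and STAT signal transducers had 6 higher and 5 lower of 15 (40% and 33.3%), Notch pathway genes 5 and 3 of 11 (45.5% and 27.3%) and Wnt pathway genes 5 and 5 of 13 (38.5% each). Of all genes 42.1% were higher and 37.4% lower, so these lists were called about as often as the rest or less. Higher and lower counts without Tet2-deficient libraries 3 and 4 were 1 and 3 for JAK and STAT, 3 and 1 for Notch and 0 and 4 for Wnt, and without WT libraries 1 and 2 4 and 3 for JAK and STAT, 5 and 1 for Notch and 3 and 5 for Wnt. Cish, an inhibitor induced by STAT5, was lower at 629, 550, 578 and 622 in WT and 316, 293, 375 and 231 in Tet2-deficient libraries (−0.99 ± 0.22), and Ptpn1, a phosphatase of receptor signalling, stood at 1645 ± 66.4 against 2702 ± 169 (−0.71 ± 0.11). The Notch coactivator gene Maml2 was higher at 104, 87.5, 117 and 104 in WT and 236, 258, 234 and 212 in Tet2-deficient libraries (1.19 ± 0.16, adjusted p = 2.51e-05), and the target gene Hes5 was higher too (1.58 ± 0.29). The ligand gene Wnt10b was lower (23.7 ± 4.88 against 83 ± 24.2, −1.74 ± 0.36), as was Tcf7, a Wnt-responsive factor of T cell progenitors (−1.42 ± 0.33), lower as the T cell markers were. Among 20 genes of the TGF-beta and BMP pathway 9 were lower and 6 higher, with the receptor Tgfbr2 at 1000 ± 149 against 2066 ± 205 (−1.05 ± 0.18) and the co-receptor Eng, a stem cell and endothelial marker, at 3957 ± 288 against 2303 ± 71.2 (0.78 ± 0.18). Of 19 G protein subunits, RGS proteins and prostanoid or adenosine receptors 9 were lower and 8 higher (47.4% and 42.1%). Without the same library pairs, first the Tet2-deficient and then the WT one, higher and lower counts were 5 and 4 and then 5 and 9 for TGF-beta and BMP, and 6 and 7 and then 6 and 6 for the G protein list. Beside Gnb1, the adenosine receptor gene Adora2b had counts of 535, 515, 465 and 475 in WT and 105, 79, 58 and 54.2 in Tet2-deficient libraries (−2.78 ± 0.25, adjusted p = 3.75e-07), Adora2a 1011 ± 219 against 2616 ± 614 (−1.37 ± 0.22) and Gna13 1357 ± 58.4 against 2588 ± 317 (−0.92 ± 0.11), each lower in all 4 libraries. Arhgef3, a guanine nucleotide exchange factor, was also lower with tight groups, at 3838, 3558, 3861 and 3976 in WT and 1270, 1381, 1265 and 1166 in Tet2-deficient libraries (−1.58 ± 0.12, adjusted p = 8.02e-08).

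Aminoacyl-tRNA synthetases, which charge tRNAs, and genes of mitochondrial dynamics, import and the TCA cycle had more higher than lower members. All 10 called aminoacyl-tRNA synthetases of 12 tested were higher and 0 lower (median 0.54, 5 and 0 without Tet2-deficient libraries 3 and 4, 6 and 0 without WT libraries 1 and 2). The mitochondrial prolyl enzyme Pars2 had counts of 121, 108, 135 and 95.7 in WT and 216, 214, 247 and 334 in Tet2-deficient libraries (1.12 ± 0.21), and the mitochondrial asparaginyl enzyme Nars2 stood at 817 ± 75.9 against 549 ± 68.5 (0.58 ± 0.13). Of 22 genes of mitochondrial dynamics, import and the TCA cycle 17 were higher and 1 lower (median 0.45, 9 and 0 without Tet2-deficient libraries 3 and 4, 11 and 1 without WT libraries 1 and 2). The lower member was Polg2, a subunit of the mitochondrial DNA polymerase (−0.46 ± 0.15), which was not called without Tet2-deficient libraries 3 and 4. Twnk, the mitochondrial DNA helicase, had 641, 853, 895 and 853 in WT and 1634, 1374, 1253 and 1451 in Tet2-deficient libraries (0.82 ± 0.13, adjusted p = 0.000103), and Pdk2, which restrains pyruvate dehydrogenase, had 664, 688, 689 and 643 in WT and 1058, 1210, 1125 and 1012 in Tet2-deficient libraries (0.71 ± 0.14). The highest WT value stayed below the lowest Tet2-deficient value in both. Of 14 mitochondrial ribosomal protein genes 5 were higher and 4 lower, and of 21 ribosome biogenesis genes 8 and 6, with shares of 35.7% and 38.1% higher beside 42.1% of all genes. Without Tet2-deficient libraries 3 and 4 higher and lower counts were 0 and 3 for mitochondrial ribosomal proteins and 3 and 1 for ribosome biogenesis, and without WT libraries 1 and 2 1 and 3 for mitochondrial ribosomal proteins and 4 and 1 for ribosome biogenesis.

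In fatty acid and triglyceride metabolism 14 genes were higher and 4 lower of 28 (12 and 2 without Tet2-deficient libraries 3 and 4, 14 and 2 without WT libraries 1 and 2). Crat, which moves acetyl groups onto carnitine (ENSMUSG00000026853, chromosome 2, 30400471 to 30415813), had counts of 711, 861, 880 and 763 in WT and 2106, 2106, 3045 and 2512 in Tet2-deficient libraries (1.59 ± 0.14, adjusted p = 4.27e-07). Cpt2, the inner membrane step of fatty acid import into mitochondria, had 216, 252, 214 and 221 in WT and 441, 512, 588 and 515 in Tet2-deficient libraries (1.18 ± 0.18), and Gpam, the first acyltransferase of triglyceride synthesis, stood at 501 ± 112 against 204 ± 25.4 (1.27 ± 0.21). Serine, folate and nucleotide synthesis had 10 higher and 2 lower of 16 (7 and 2, then 8 and 2, without the same library pairs). Mat2a, which makes S-adenosylmethionine, the methyl donor of DNA methylation, had 930, 925, 786 and 800 in WT and 2256, 2446, 4051 and 3347 in Tet2-deficient libraries (1.78 ± 0.23, adjusted p = 1.6e-05). Mthfd1l, of mitochondrial folate metabolism, was higher too (0.69 ± 0.11), and Mtr, methionine synthase, was lower at 1097 ± 96.4 against 1984 ± 232 (−0.85 ± 0.15). Mat2a and Crat were highest in Tet2-deficient library 3, as the erythroid markers were, and the part of those cells was not tested.

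Iron handling genes moved in both directions. Of 19 tested genes 9 were higher and 10 lower, and all were called (7 higher and 5 lower without either of the library pairs left out above). The higher ones included Steap3, the transferrin receptor Tfrc (1.55 ± 0.38, named after its value was seen) and Slc39a8, a zinc and iron importer (1687 ± 616 against 557 ± 137, 1.56 ± 0.28), and the lower ones the neutrophil proteins Lcn2 (−1.45 ± 0.26) and Ltf (−2.10 ± 0.43). Ltf was highest in WT library 1 and lowest in Tet2-deficient library 2, the order of the neutrophil markers. ABC transporters had 10 higher and 3 lower of 16 (7 and 2 without Tet2-deficient libraries 3 and 4, 8 and 2 without WT libraries 1 and 2). Abcg4, a sterol transporter, stood at 31.7, 112, 35.2 and 35.4 in WT and 372, 260, 1107 and 565 in Tet2-deficient libraries (3.40 ± 0.47) and Abcb4, a phospholipid flippase, at 62.5, 129, 90.3 and 99.5 in WT and 200, 269, 1043 and 1071 in Tet2-deficient libraries (2.41 ± 0.52), both with Tet2-deficient libraries 3 or 4 highest.

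Cell cycle genes were higher in 16 and lower in 4 of 25 cases, and in 7 and 4 without Tet2-deficient libraries 3 and 4 (11 and 3 without WT libraries 1 and 2). Over all 6110 genes the calls fell too, from 2575 higher and 2283 lower to 1452 and 1308 without Tet2-deficient libraries 3 and 4. Tfdp2, the dimer partner of E2F factors, had counts of 1077, 1029, 993 and 992 in WT and 1516, 2143, 2430 and 2323 in Tet2-deficient libraries (1.02 ± 0.15, adjusted p = 4.83e-05), and Ccnd2, cyclin D2, had 3073, 2778, 2964 and 3143 in WT and 5857, 5970, 4501 and 4915 in Tet2-deficient libraries (0.82 ± 0.12). The Ccnd2 values were highest in Tet2-deficient libraries 1 and 2 and those of Tfdp2 in 2, 3 and 4. Cks2, a cofactor of the mitotic kinase, was lower at 4001 ± 840 against 7960 ± 910 (−1.01 ± 0.14). In Fanconi and homologous recombination repair 13 genes were higher and 8 lower of 28, and 1 higher and 5 lower without Tet2-deficient libraries 3 and 4 (7 and 7 without WT libraries 1 and 2). With all libraries the shares of this list were 46.4% higher and 28.6% lower, beside 42.1% and 37.4% of all genes. Rbbp8, which starts end resection, stood at 1506 ± 119 against 2266 ± 45.3 (−0.59 ± 0.09) and Fancc at 693 ± 30.6 against 1073 ± 83.8 (−0.63 ± 0.11), both lower in every library. Of 18 genes of cell death 8 were lower and 5 higher (7 and 3, then 7 and 4, lower and higher without the same library pairs). With all libraries these were 44.4% lower and 27.8% higher, beside the same shares of all genes. Pmaip1, which encodes the BH3-only protein NOXA, had 17816, 15496, 19849 and 14609 in WT and 4568, 4700, 2335 and 2753 in Tet2-deficient libraries (−2.29 ± 0.24, adjusted p = 2.39e-06), and the inhibitor of apoptosis Birc2 stood at 1556 ± 127 against 2471 ± 82.7 (−0.67 ± 0.09).

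Chromatin and RNA processing genes moved in both directions, and their counts are read beside the 42.1% higher and 37.4% lower of all genes. Of 18 histone acetylation genes 10 were lower and 3 higher, with the acetyltransferase gene Kat7 at 5074 ± 308 against 8116 ± 619 (−0.68 ± 0.16). Histone methyltransferases and demethylases had 9 lower and 7 higher of 23, with Kmt2e lower at 4614, 4358, 5846 and 5229 in WT and 2770, 2977, 2451 and 2369 in Tet2-deficient libraries (−0.92 ± 0.13, adjusted p = 4.52e-05). All 4 CLK kinases of splicing factors were lower, Clk4 (−0.69 ± 0.10), Clk3 (−0.55 ± 0.10), Clk1 (−0.80 ± 0.15) and Clk2 (−0.54 ± 0.18), of which Clk2 is named after its value was seen and was not called without Tet2-deficient library 4, in a list of 25 splicing genes with 10 lower and 6 higher. After quantile normalization that list had 7 lower and 8 higher. Higher and lower counts without Tet2-deficient libraries 3 and 4 were 1 and 3 for histone acetylation, 3 and 4 for histone methylation and 0 and 4 for splicing, and without WT libraries 1 and 2 1 and 8 for histone acetylation, 5 and 8 for histone methylation and 4 and 9 for splicing.

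Imprinted genes, whose parental expression follows DNA methylation, were higher in 13 and lower in 4 of 20 cases (8 and 2 without Tet2-deficient libraries 3 and 4, 7 and 4 without WT libraries 1 and 2). These were 65% and 20%, beside 42.1% and 37.4% of all genes. Quantile normalization left 8 higher and 4 lower, so the excess of higher members depended on the scaling. Ndn, a growth suppressor of stem cells, had counts of 19.2, 37.2, 29.7 and 54.5 in WT and 170, 188, 137 and 152 in Tet2-deficient libraries (2.25 ± 0.36, adjusted p = 0.000114). Dlk1, a membrane ligand, had 26.9, 27.2, 14.3 and 31.6 in WT and 261, 165, 102 and 94 in Tet2-deficient libraries (2.52 ± 0.44). In Tet2-deficient cells Dlk1 was highest in library 1 and lowest in library 4, still above every WT value. Ube3a (1.03 ± 0.20) and Grb10 (0.72 ± 0.15) were higher as well. Of 56 listed germline genes under promoter methylation 7 were in the table, 3 higher and 4 lower. Rec8, a meiotic cohesin subunit, had 418, 441, 566 and 395 in WT and 114, 128, 145 and 108 in Tet2-deficient libraries (−1.87 ± 0.16, adjusted p = 2.5e-07), and Hormad2, of the meiotic chromosome axis, had 54.8, 81.5, 45.1 and 81.3 in WT and 150, 182, 216 and 159 in Tet2-deficient libraries (1.45 ± 0.27). The 2 genes thus differed in opposite directions.

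Other families are given by their counts, which are read beside the 42.1% higher and 37.4% lower of all genes. Matrix genes and their proteases had 11 higher and 11 lower of 27, with Timp3, an inhibitor of metalloproteinases, at 346, 486, 523 and 627 in WT and 83.5, 102, 78.1 and 77.9 in Tet2-deficient libraries (−2.50 ± 0.26, adjusted p = 1.84e-06), the phosphoprotein Spp1 at 101 ± 16.6 against 455 ± 123 (−2.13 ± 0.21) and the gelatinase Mmp2 at 477 ± 60.2 against 140 ± 28 (1.77 ± 0.23). Semaphorins, plexins, ephrins and their receptors had 8 higher and 4 lower of 15, and Plxnd1 was lower at 698, 933, 573 and 743 in WT and 78.6, 86.8, 54 and 92.3 in Tet2-deficient libraries (−3.23 ± 0.27, adjusted p = 1.89e-07). TRIM ubiquitin ligases had 15 higher and 5 lower of 23, among them Trim11 (−0.74 ± 0.11) and Trim47 (1.75 ± 0.32). Circadian clock genes had 10 lower and 5 higher of 18. Among them the casein kinase gene Csnk1e stood at 567 ± 72.3 against 1154 ± 178 (−1.02 ± 0.16). Without Tet2-deficient libraries 3 and 4 higher and lower counts were 7 and 9 for matrix genes, 4 and 3 for semaphorins and their kin, 8 and 2 for TRIM ligases and 2 and 4 for the clock, and without WT libraries 1 and 2 9 and 8 for matrix genes, 3 and 4 for semaphorins and their kin, 10 and 4 for TRIM ligases and 2 and 7 for the clock. Over the 43 lists with at least 10 tested members, 21 had more lower than higher members, 19 more higher than lower and 3 equal numbers, and the plot of called shares by list shows 42 of them. After quantile normalization the higher and lower counts were 9 and 9 in Fanconi and recombination repair, 20 and 20 in the transcription factors and 4 and 4 in the semaphorin list. The TRIM list then had 9 higher and 6 lower.

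**Figure D4:**
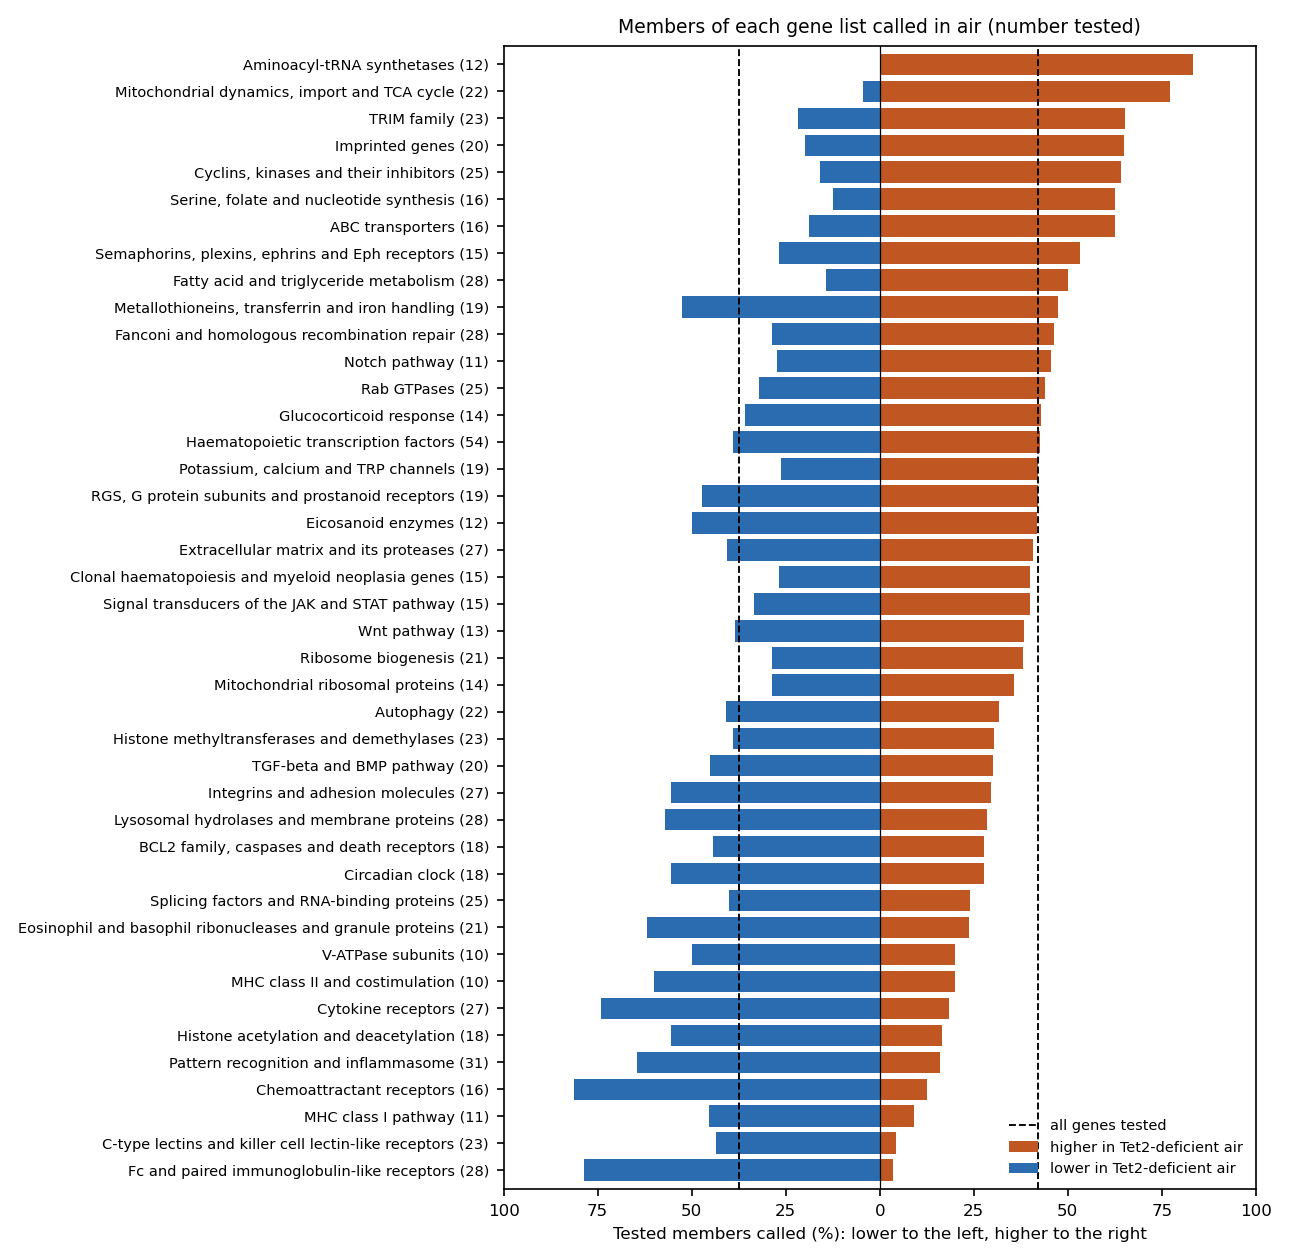
Share of tested members called lower (blue, to the left) and higher (orange, to the right) in Tet2-deficient air libraries for 42 of the 43 gene lists with at least 10 tested members, whose number is in brackets. Dashed lines mark the shares of all 6110 genes, 37.4% lower and 42.1% higher, and the lists run from aminoacyl-tRNA synthetases, with 0 lower, to Fc and paired immunoglobulin-like receptors, with 22 of 28 lower.

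Some genes were nearly absent from 1 genotype, meaning that 4 libraries together held at most 12 normalized counts while each library of the other genotype held at least 20. WT air libraries had 31 such genes and Tet2-deficient ones 25. The 31 comprised 13 protein-coding genes, 12 pseudogenes, 4 immunoglobulin segments and 2 other noncoding genes. Those that are no segment lay on 13 chromosomes, some close together, such as Ear10 and Ear-ps2 on chromosome 14. In Tet2-deficient air 13 of the 25 were immunoglobulin segments, 6 protein-coding, 2 pseudogenes and 4 other noncoding genes. Those of the 25 that are no segment lay on 7 chromosomes. Gbp2b, a guanylate-binding protein of the interferon response, had counts of 0, 0, 0 and 0.957 in WT and 399, 432, 365 and 367 in Tet2-deficient libraries, or 1785 reads in all against 1. Atp6v0e2, a proton pump subunit, stood at 0, 2.01, 0 and 0 in WT and 322, 378, 253 and 218 in Tet2-deficient libraries. Among the other genes nearly absent from WT were Prss41 (0, 4.02, 6.61 and 0.957 in WT and 185, 206, 133 and 119 in Tet2-deficient libraries), Ttll11, a tubulin glutamylase (ratio of summed reads 53.8, 95% counting interval 28.1 to 118), Pianp (75.3, 25.5 to 368), Apol7b (181, 32.2 to 7193) and the malic enzyme gene Me1 (11.5, 6.26 to 23.6). Ccnb1ip1, which acts in meiotic crossing over, had 0 reads in every WT library and was at least 10.5-fold higher, taking 3 reads per library as the floor. Of the 31 genes, 20 were as low in the WT physioxia libraries.

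On the other side, Baiap3, a regulator of vesicle release, had counts of 206, 220, 198 and 240 in WT and 0, 0, 0 and 0.846 in Tet2-deficient libraries. Fgf3, a fibroblast growth factor, had 286, 160, 287 and 120 in WT and 0.818, 5.21, 2 and 2.54 in Tet2-deficient libraries, and Eps8l1, a relative of an actin regulator, had 181, 103, 150 and 144 in WT and 1.64, 1.74, 4 and 0 in Tet2-deficient libraries. Each was present in all 4 WT libraries and at most at a few reads in the others. The adaptor gene Grb14 had a ratio of 25.4 (interval 14 to 51.6). Upk1b, a uroplakin, and Capn11, a calpain, had 0 reads in each Tet2-deficient library and were at least 22.3-fold and 14.5-fold lower. Of the 25 genes, 21 were as low in the Tet2-deficient physioxia libraries. The intervals and floors take in counting error alone.

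Immunoglobulin variable segments, from which each B lineage cell assembles its own receptor, differed in both directions. Of 48 tested Igkv segments 24 were lower and 12 higher, and 29 differed by at least 3 on the log2 scale. Of 46 Ighv segments 19 were lower and 16 higher. Igkv8-27 had counts of 712, 393, 264 and 215 in WT and 0, 0, 0 and 0 in Tet2-deficient libraries, and Igkv4-81 had 0, 0, 0 and 0 in WT and 40.1, 45.2, 113 and 82.1 in Tet2-deficient libraries. Each was thus read in all 4 air libraries of 1 genotype and listed at 0 in the air libraries of the other. The sum of all Igkv segments was 2931 to 5905 in Tet2-deficient and 7717 to 9421 in WT air libraries. In physioxia, however, Igkv4-81 was read in WT as well, with a mean of 30.8 against 57.2 in Tet2-deficient libraries. Igkv8-27 had means of 250 in WT and 0.995 in Tet2-deficient physioxia libraries. Both are named after their values were seen.

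The genes around Tet2 on chromosome 3 were set beside the rest of the genome by position. Within 10 Mb on either side, 37 genes other than Tet2 were tested, 78.4% were called, and 12 met the second rule (32.4%), 10 higher and 2 lower. The second rule was met by 25.7% of the 222 genes elsewhere on chromosome 3 and by 26.9% of 5850 on other chromosomes. The genes near Tet2 are linked and some are paralogues, so these shares are a description with no test. Gbp7, next to Gbp2b, had counts of 1071, 935, 1118 and 983 in WT and 2031, 2290, 2165 and 1965 in Tet2-deficient libraries, and Slc39a8, 2.28 Mb from Tet2, had 489, 736, 420 and 585 in WT and 1180, 1393, 2574 and 1602 in Tet2-deficient libraries. Pla2g12a, a secreted phospholipase, stood at 981 ± 429 against 241 ± 49.4 (1.94 ± 0.38). The lower ones were Lef1 (−2.70 ± 0.61) and Gm43088 (−1.74 ± 0.72), the latter not called when WT library 1, 3 or 4 or Tet2-deficient library 1 or 2 was left out. The remaining 7, among them Slc9b2, Gm43379, Gm42807, Oaz2-ps, Gbp2b and 9530052C20Rik, were higher, and all 7 had WT means under 30. Gbp2 (853 ± 150 against 590 ± 29.2), the neighbour of Gbp2b, is its paralogue, and reads between them may be divided.

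Gbp2b and the retrovirus restriction gene Apobec3, which lay on opposite sides of the comparison, both hold an interferon-stimulated response element in the promoter, written here as TTTC and TTTC parted by any 2 bases. Apobec3 (ENSMUSG00000009585, chromosome 15, 79891659 to 79915906) had counts of 5815, 5714, 4910 and 5171 in WT and 2003, 2080, 2352 and 2175 in Tet2-deficient libraries (−1.33 ± 0.10, adjusted p = 4.78e-08). The windows are the 250 bases before the start from RefSeq (GRCm38.p6), at chr3:142594597-142594846 and chr15:79892158-79892407, both on the plus strand, with the element in capitals, 137 and 140 bases before the start. The RefSeq start of Apobec3 lies inside the gene's span given above, which is that of GENCODE.
Gbp2b: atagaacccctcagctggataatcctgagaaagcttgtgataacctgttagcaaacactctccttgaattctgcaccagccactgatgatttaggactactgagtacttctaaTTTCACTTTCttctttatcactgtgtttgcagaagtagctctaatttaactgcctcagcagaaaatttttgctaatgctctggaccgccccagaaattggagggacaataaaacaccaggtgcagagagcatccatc
Apobec3: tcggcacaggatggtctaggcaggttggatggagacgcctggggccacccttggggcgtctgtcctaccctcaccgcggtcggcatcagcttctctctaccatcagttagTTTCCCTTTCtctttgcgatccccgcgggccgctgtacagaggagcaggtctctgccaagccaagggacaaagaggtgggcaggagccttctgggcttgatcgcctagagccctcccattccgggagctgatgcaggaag

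What the promoters of called genes share was counted over the 4279 of 5345 tested protein-coding genes (80.1%) with a RefSeq promoter, 250 bases before to 50 after the start, both strands searched. The GATA element AGATAA was in 7.83% of promoters of genes called higher, 7.18% of those lower and 5.39% of those not called, against 11.4% of all 27025 RefSeq promoters. The cyclic AMP element TGACGTCA was in 2.37%, 4.51% and 3.93%, against 1.88%. The response element for interferon was in 2.98%, 3.68% and 2.36%, against 3.49%, and the AP-1 element TGANTCA in 4.47%, 5.72% and 5.5%, against 7.93%. The NF-kB form, GGG and CC parted by any 5 bases, was in 66.5%, 69% and 68%, so it hardly separates promoters. The PU.1 element GAGGAAGT was in 2.54%, 3.37% and 4.04%, the KLF element CCACACCC in 4.08%, 4.89% and 4.04% and the E-box CAGCTG in 16.1%, 14.7% and 13.1%. Of the genes called lower 79.6% had a promoter and of those of the second rule 77.2% and 77.9%, under the 80% needed here, so for these sets the check is void and the shares are a description of the matched promoters.

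CpG content of the promoter went with how often a gene differed strongly. The second rule was met by 38.7% of 331 genes whose promoter had a CpG observed-over-expected ratio under 0.2 and by 9.59% of 532 genes with a ratio over 1. Genes with little CpG also had fewer reads, with a median of the mean counts of 197 against 935, and over all tested genes the second rule was met by 58.7% of those with a mean under 31 and by 9.69% of those of at least 2047. With the genes parted into 3 classes by mean count, the shares at the ends of the CpG range were 25.4% and 3.56% in the highest class, 27.5% and 7.91% in the middle class and 48.9% and 28.3% in the lowest. The fall was not steady. The middle class stood at 37.3% for ratios of 0.2 to 0.4 and the lowest class at 49.4% for 0.4 to 0.6. Shares called lower or higher without the size condition differed less, 41.4% and 34.4% lower and 40.5% and 42.7% higher at the ends of the range. These are descriptions over genes, which are not replicates, with 19.9% of tested protein-coding genes not matched.

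**Figure D5:**
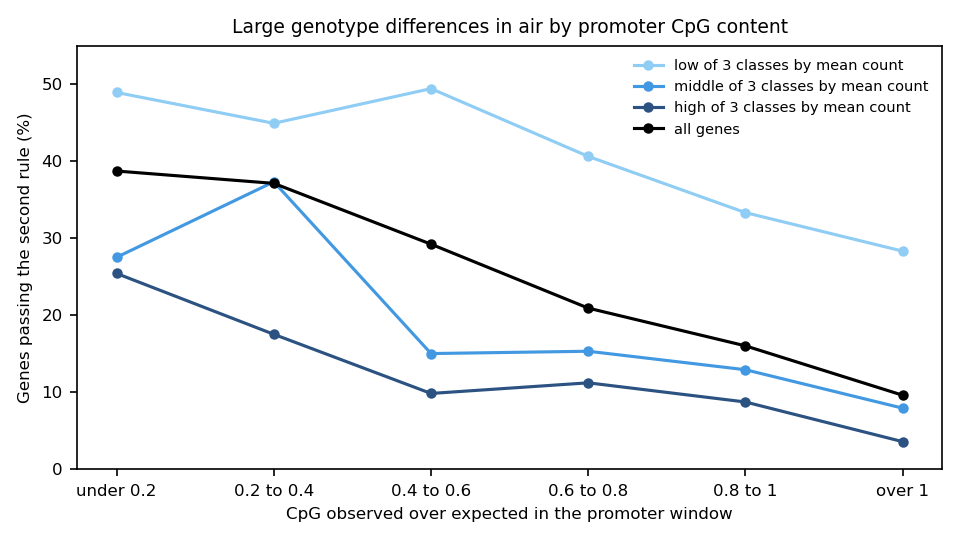
Share of tested protein-coding genes that met the second rule (called, a difference of at least 1 in size, groups not overlapping) by the CpG observed-over-expected ratio of their promoter, for all genes (black) and for 3 classes by mean count (blue shades). The share for all genes falls from 38.7% under 0.2 to 9.59% over 1, and each class ends lower than it starts.

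The same genotypes kept in physioxia give values beside these. There 69.4% of genes were called (4243), 3457 of them in the same direction as in air and 1 in the opposite direction, with libraries of other cells but possibly the same mice. Because 79.5% of all tested genes were called in air, many shared calls would arise from that share alone. Inafm2 differed by −3.27 ± 0.14 in physioxia, Csf2ra by −1.09 ± 0.11, Prss34 by −3.23 ± 0.27, Id1 by 2.00 ± 0.22, Crat by 1.63 ± 0.14 and Gbp2b by 8.56 ± 0.34. Whether the genotype difference itself changed with oxygen was tested by the interaction, and 0% of genes passed: limma called 0 genes, with 546 at an unadjusted p under 0.05 and a smallest adjusted p of 0.552, edgeR called 0 and DESeq2 10. With the WT libraries of the same number in air and physioxia as a block, limma also called 0 genes, with 707 at an unadjusted p under 0.05 and a smallest adjusted p of 0.358. The genes nearest to a larger difference in air were Edem1, of the degradation of misfolded glycoproteins (interaction 1.99 ± 0.46), the Polycomb subunit Pcgf6 (1.93 ± 0.49), Rab5if (3.14 ± 0.82) and Kctd5 (1.12 ± 0.30). Edem1 stood in air at 641, 601, 1010 and 547 in WT and 1422, 1695, 2071 and 3651 in Tet2-deficient libraries. Toward physioxia lay the repressor Spen (−1.17 ± 0.29), the choline transporter-like gene Slc44a4 (−1.72 ± 0.45), Slfn9 (−0.80 ± 0.22) and Cfap44 (−2.81 ± 0.79). Cfap44 had 2.88, 12.1, 4.4 and 6.7 in WT and 9.82, 3.47, 10 and 8.46 in Tet2-deficient libraries in air, where its difference was 0.31 ± 0.56 and turned to −0.09 after quantile normalization.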

How the data were processed

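The deposited signal values are gene counts of 16 bulk RNA libraries that the authors divided by 1 DESeq2 size factor per library. FastQC, cutadapt, STAR, HTSeq, DESeq2 and build GRCm38 are named per the submitters' processing notes, with versions not given in the sources used here. How the 6288 genes of the table were chosen is not given there either. All values were whole reads within 0.01 after undoing the size factor (100%).

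log2(normalized count + 1) was fitted with limma 3.58.1 (trend, R 4.3.3) over all 16 libraries as 4 group means, for the 6110 genes with at least 10 normalized counts in at least 4 libraries, and p-values were adjusted by Benjamini-Hochberg over them. The fit was tested on simulated data. Alternatives were other pseudocounts, filters and scaling, air libraries only, a replicate block, edgeR 4.0.16 and DESeq2 1.42.0 on the recovered reads, and left-out libraries. Members and lists were chosen with earlier results of these data known. Leaving out WT libraries 1 and 2 was chosen after seeing the data. The labels do not say that a replicate number marks a shared mouse. Deviations of same-numbered WT libraries correlated across oxygen in all 4 pairs (0.162 to 0.332), which by the threshold of 0.1 pairs them. Those of same-numbered Tet2-deficient libraries did not all do so (−0.275 to 0.322). Tet2-deficient libraries of different numbers reached 0.5, between air library 3 and physioxia library 2, and whether they pair under other numbers was not tested.

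Named genes were the 12 per direction with the smallest p under the second rule with a mean of at least 200, excluding antigen receptor segments and unnamed loci. Further sources were up to 4 members per list by p, genes nearly absent from 1 genotype, second-rule genes within 10 Mb of Tet2, 4 genes per direction for the interaction and a set of regulators. Some genes named by this rule are left out here, and which members of a list are printed was decided after their values were seen.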

Additional observations from a re-analysis of the deposited data

Results flagged for a closer look

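Among 388 groups of 4 air libraries, 2 for each of the 194 genes named, 25 had 1 library set apart from the other 3 by Dixon's criterion. Chance flags about 1 in 20 groups of normally distributed values, which counts near 0 are not. Where the other 3 libraries are at 0, as for Gbp2b, Apol7b, Atp6v0e2 and Baiap3, any read sets the flag. In WT air, library 3 stood apart for Atp6v0c (7979 against 9595 to 9809), Inafm2 (2823 against 2502 to 2529), Rab5if (747 against 180 to 233), Rpl3 (32724 against 47086 to 49338), Slc44a4 (83.7 against 47.3 to 50.9) and Tpsab1 (13.2 against 0 to 0.957). WT library 2 did so for Abcg4 (112 against 31.7 to 35.4), Ptpn1 (2450 against 2759 to 2814), Fcer2a (9.06 against 0 to 0.961) and Atp6v0e2 (2.01 against 0). WT library 1 did so for Cxcr4 (420 against 207 to 236), Twnk (641 against 853 to 895) and Apol7b (0.961 against 0), and WT library 4 for Hmga1 (7348 against 6690 to 6771), 9530052C20Rik (8.61 against 0 to 1.1) and Gbp2b (0.957 against 0).

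In Tet2-deficient air, library 2 stood apart for Inafm2 (231 against 160 to 171) and Me1 (44.3 against 26 to 28.8), and library 3 for Ctsh (471 against 697 to 736) and Gfi1b (3457 against 2443 to 2547). Library 4 did so for Mtr (953 against 1131 to 1159), Sqstm1 (16197 against 20499 to 21353), Vcam1 (1230 against 923 to 953), Tlr11 (4.23 against 12 to 12.3) and Baiap3 (0.846 against 0).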

How the results depend on the processing

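The count of 4858 genes called in air fell to 2760 without Tet2-deficient libraries 3 and 4, to 2432 with annotated genes absent from the table entered as unchanged, and to 1642 under the second rule, and lay between 4050 and 4581 with 1 library left out. The 668 calls over the gene lists fell to 389 without Tet2-deficient libraries 3 and 4. The interaction had 10 calls by DESeq2 and 0 to 1 with 1 library left out, the 1 without WT library 3. Second-rule genes near Tet2 numbered 12 within 10 Mb and 22 within 20 Mb. GATA elements stood in 7.83% of promoters of genes called higher and 9.67% under the second rule, a set whose promoter matching is void. Quantile normalization lowered the median difference of all genes by 0.12, gave 1986 genes higher and 2299 lower, and turned Cfap44 to −0.09. With a replicate block across genotypes 4822 genes were called, and of the named genes Uty alone lost its call (limma adjusted p = 0.0505 for Uty in air). Deviations of same-numbered air libraries correlated by −0.118 to 0.0443 over the 4 pairs, so the numbers are not shown to pair the genotypes. A block of the WT pairs across oxygen, added after seeing the data, gave 5041 calls in air, 4357 in physioxia and 0 for the interaction, and of the named genes it changed the call of Irf8 alone. It takes differences between WT pairs out of the error of the genotype comparison. Without Tet2-deficient libraries 3 and 4, 12 named genes lost their call, and without WT libraries 1 and 2, 10 did and 1 gained one. The 10.6 to 13.0 M reads per air library over the deposited genes limit genes with few counts, and genes outside the deposited table could not be tested.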
